A study of Mus musculus with 5 samples.

Results

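The Hedgehog receptors and GLI factors were followed through 9 genes, Ptch1, Smo, Gli1, Gli2, Gli3, Sufu, Hhip, Gas1 and Boc, taken as every non-control probe of the array that carries one of these gene names. They are 9 of 31829 distinct gene names and gave 15 of the 39429 non-control probes. The cells were MIN6, a mouse beta cell line that makes and secretes insulin. All samples had received exosomes, small vesicles collected by ultracentrifugation from the medium of mouse muscle kept outside the body. In the EXO-HP group (n = 3 samples) the muscle came from mice fed a high fat diet, and in the EXO-STD group (n = 2 samples) from mice fed a standard diet. Each sample was labelled with Cy3 and hybridised to 1 Agilent array. No sample without vesicles was analysed here, so each comparison sets one kind of vesicle against the other. The labels give neither age nor strain of the mice. They speak of biological replicates without naming separate cultures or vesicle preparations, so p-values measure only the spread between these samples, which may be technical.

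Hedgehog ligands are secreted, lipid-modified proteins that bind the receptor Ptch1 together with the co-receptors Gas1, Boc and Cdon. Without ligand, Ptch1 holds the membrane protein Smo inactive; once released, Smo moves into the primary cilium and frees the zinc finger factors Gli1, Gli2 and Gli3 from their partner Sufu. Hhip binds and sequesters ligand, and Ptch1, Hhip and Gli1 are themselves classical targets of the pathway. In the embryo, Hedgehog ligands are kept out of the early pancreatic bud, and adult islet cells carry primary cilia.

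Ptch1, Smo, Sufu and Hhip were each read by 2 probes and Gas1 by 3, whereas Gli1, Gli2, Gli3 and Boc had 1 each. All 15 probes are 60 bases long, and their positions, as the array tables give them, are on mm9; exon annotation was not used here. The Sufu pair is shown because its probes gave different patterns over the arrays, and the Ptch1 probe because its level varied little. The Sufu probes lay at chr19:46529259-46529318 and chr19:46558091-46558150 on the plus strand, starting 28832 bases apart. This Ptch1 probe lay at chr13:63612879-63612938 on the minus strand.
Sufu A_52_P603184: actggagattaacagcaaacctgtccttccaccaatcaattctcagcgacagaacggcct
Sufu A_51_P396550: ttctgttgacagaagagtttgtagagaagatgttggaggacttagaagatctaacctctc
Ptch1 A_55_P2107292: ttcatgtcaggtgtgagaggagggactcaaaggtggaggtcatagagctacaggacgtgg
The share of G and C was 48.3% in the first Sufu probe and 53.3% in this Ptch1 probe. Over all member probes it ranged from 21.7% in the other Ptch1 probe, A_52_P598605, to 85.0% in the Gas1 probe A_55_P2025562, which holds an unbroken run of 20 G and C bases. The Smo probe A_55_P2121484 holds an unbroken alternation of C and A over 13 bases.

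Signals are given as log2 of the processed intensity minus the 75th percentile of the array, so that 0 stands for that percentile. EXO-HP replicate 1 and both EXO-STD replicates lay on slide 1, and EXO-HP replicates 2 and 3 lay on slide 2, which was scanned separately. Spots well above background made up 74.0%, 91.6% and 81.6% on EXO-HP 1, 2 and 3, against 73.4% and 71.8% on EXO-STD 1 and 2. All 10 beta cell markers examined were well above background on all 5 arrays. Across the array, 0% of the 31943 tested probes passed limma's adjusted p of 0.05. The number of arrays, 5, limits the precision.

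The receptors Ptch1 and Smo, the co-receptor Boc and the regulator Sufu were detected in every sample by at least 1 probe, as was Gas1. For Smo and Gas1 this rests on A_55_P2121484 and A_55_P2025562, as no other probe of theirs was well above background on EXO-STD arrays. For Sufu it rests on A_52_P603184, as its other probe was not detected on EXO-STD 2. Gli2 did not clear background on any of the 5 arrays. Gli1 was well above background on EXO-HP 2 alone, and Gli3 on EXO-HP 2, EXO-HP 3 and EXO-STD 1. Of the 15 member probes, 10, 12 and 11 were well above background on EXO-HP 1, 2 and 3, against 8 and 6 on EXO-STD 1 and 2. Each EXO-HP array thus detected more member probes than either EXO-STD array. Counted by gene, EXO-HP 1 did not exceed EXO-STD 1: Hhip was detected only on the former and Gli3 only on the latter. The share of detected spots over the whole array was 74.0% on EXO-HP 1, against 73.4% on EXO-STD 1. Of the 15 member probes, 6 were detected on all 5 arrays and 3 on none. In whole-culture RNA, fewer cells of a type and less RNA per cell cannot be told apart. The 4 probes detected on fewer than 2 arrays of either group were left out of the test, which ran on the other 11.

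**Figure D1:**
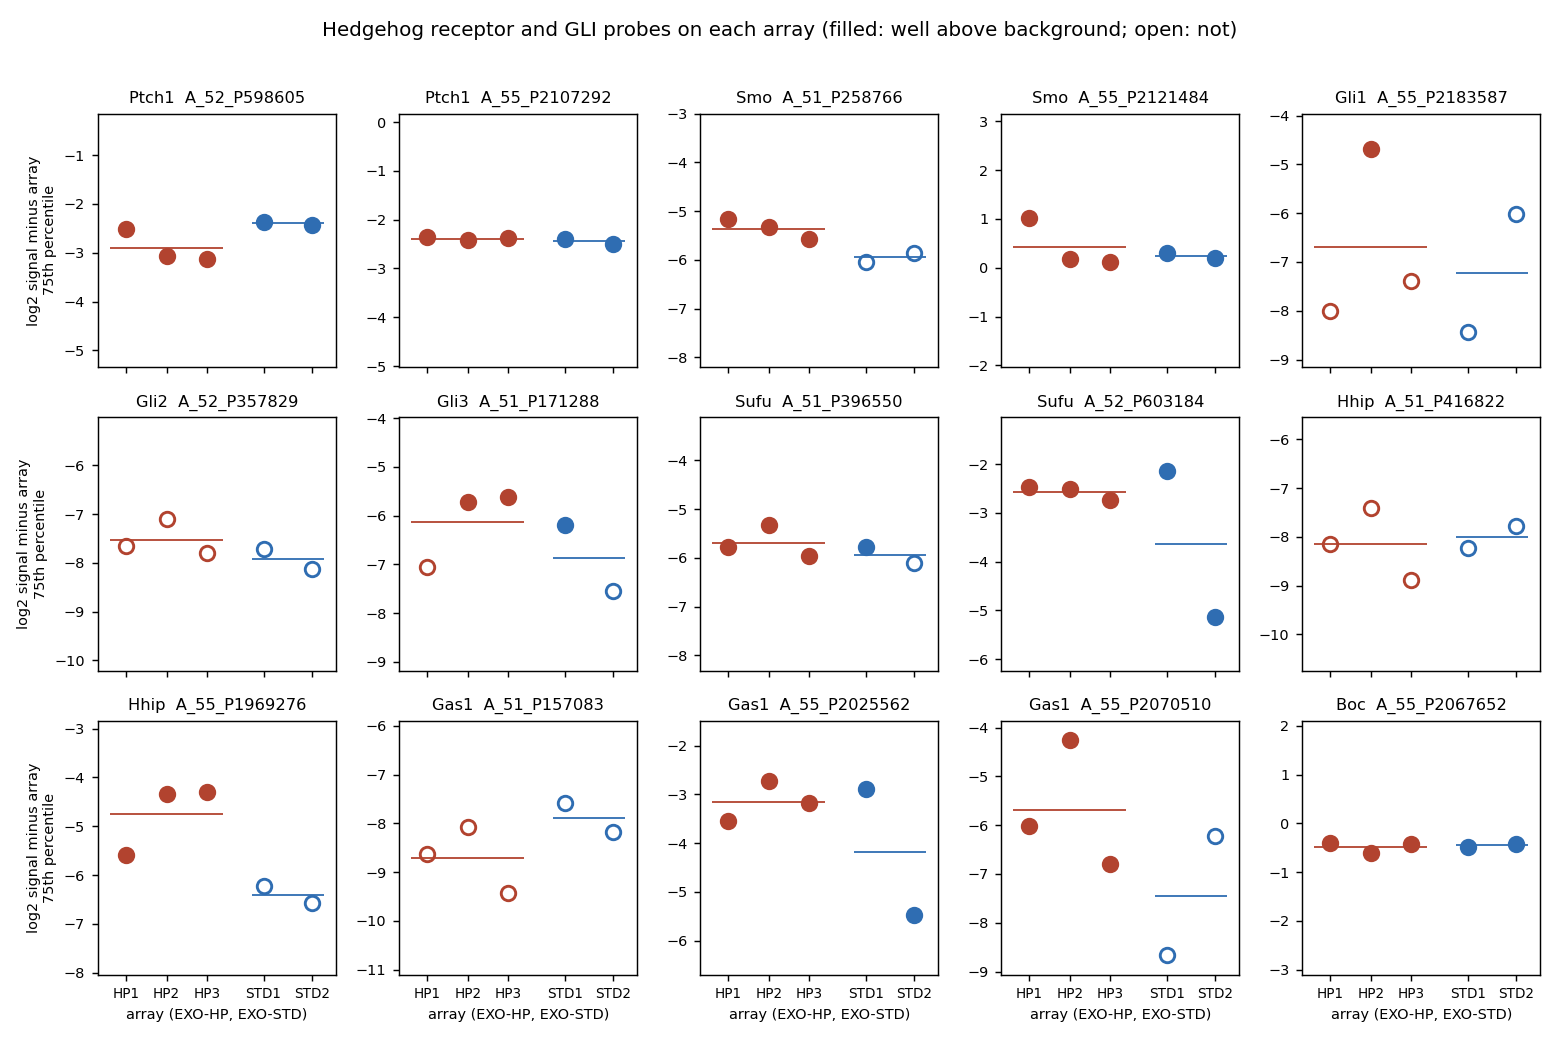
Log2 signal minus the array's 75th percentile (vertical axis, same span in every panel) of the 15 member probes on the EXO-HP arrays (HP1 to HP3, red) and the EXO-STD arrays (STD1 and STD2, blue), with lines at the group means. Filled points were well above background and open points were not; Boc and the Ptch1 probe A_55_P2107292 lie nearly level over the 5 arrays, and the Hhip probe A_55_P1969276 lies higher on all 3 EXO-HP arrays.

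Ptch1, the ligand-binding receptor, did not pass the test by either of its probes, and the probes differed. Probe A_55_P2107292 read -2.35, -2.42 and -2.38 on EXO-HP 1, 2 and 3, against -2.40 and -2.49 on EXO-STD 1 and 2. These 5 values overlapped between the groups. The log2 fold change was 0.06 ± 0.18 (SE), with a 95% interval from -0.40 to 0.52 (limma, adjusted p = 1.00), and its sign turned with median scaling (-0.12) and quantile normalisation (-0.06). Probe A_52_P598605, at chr13:63610298-63610357, starts 2581 bases away on the same strand. It read -2.51, -3.08 and -3.13 on the EXO-HP arrays, against -2.37 and -2.43 on the EXO-STD arrays. All EXO-HP arrays lay below both EXO-STD arrays, with EXO-HP 1 close to them. EXO-HP minus EXO-STD came to -0.51 ± 0.26 on the log2 scale (interval -1.16 to 0.14, limma, adjusted p = 0.956). On slide 1 alone, where EXO-HP 1 is set against both EXO-STD arrays, it was -0.12.

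The log2 ratio of A_52_P598605 to A_55_P2107292 within each array was -0.16, -0.65 and -0.74 on EXO-HP 1, 2 and 3, against 0.04 and 0.07 on EXO-STD 1 and 2. The ratio was therefore lower on every EXO-HP array, by -0.57 on average (exact permutation test, 2-sided p = 0.2, the smallest that 3 against 2 arrays allow). On EXO-HP 1, the EXO-HP array of slide 1, the ratio lay nearer to EXO-STD than to the slide 2 arrays.

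Smo, the signal transducer that Ptch1 restrains, also had probes that differed, in level and in detection. Probe A_51_P258766 (chr6:29711225-29711284, plus strand) read -5.16, -5.33 and -5.58 on the EXO-HP arrays, against -6.03 and -5.87 on the EXO-STD arrays. The groups did not overlap, and only the 3 EXO-HP arrays were well above background. Its mean of -5.36 ± 0.21 (SD, n = 3) in EXO-HP was 1.51-fold higher than the -5.95 ± 0.12 (SD, n = 2) in EXO-STD (limma, adjusted p = 0.890). The bounds given below replace a dim EXO-STD signal by that array's faintest signal well above background, if this is higher. Those faintest signals were -6.47 and -6.14 on EXO-STD 1 and 2, below both Smo signals. For this probe the bound therefore equals the fitted fold and sets no lower limit. With quantile normalisation the log2 fold change was 0.02, and with normexp background correction 0.04. The 1.51-fold thus holds for the percentile scaling only, as do the bounds given for Gas1, Hhip and Foxf1. The fitted interval was 0.05 to 1.14.

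Smo probe A_55_P2121484 (chr6:29710919-29710978, plus strand), which starts 306 bases away, read 1.01, 0.18 and 0.11 on EXO-HP 1, 2 and 3, against 0.30 and 0.20 on EXO-STD 1 and 2. One array, EXO-HP 1, stood above the other 4, which lay close together. Its difference of 0.19 ± 0.33 on the log2 scale (interval -0.63 to 1.01, limma, adjusted p = 1.00) was -0.10 without EXO-HP 1. The level of the Smo probes differed widely. The log2 ratio of A_51_P258766 to A_55_P2121484 was -6.18, -5.51 and -5.69 on EXO-HP 1, 2 and 3, against -6.33 and -6.06 on EXO-STD 1 and 2.

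Of the co-receptors, Boc, an immunoglobulin-type membrane protein that presents ligand to Ptch1, had the log2 fold change nearest to 0 among the 11 tested probes. Its probe A_55_P2067652 (chr16:44485665-44485724, minus strand) read -0.40, -0.60 and -0.43 on the EXO-HP arrays, against -0.48 and -0.42 on the EXO-STD arrays. No difference was detected (log2 fold change -0.02 ± 0.19, 95% interval from -0.50 to 0.45, limma, adjusted p = 1.00), and over the alternatives it lay between -0.20 with median scaling and 0.05 on slide 1 alone.

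Gas1, a co-receptor anchored by a lipid tail, had 3 probes on the minus strand of chromosome 13, spread over 1844 bases between their starts. Probe A_55_P2025562, the one rich in G and C, read -3.54, -2.73 and -3.19 on EXO-HP 1, 2 and 3, against -2.89 and -5.47 on EXO-STD 1 and 2. EXO-STD 2 stood far below the other 4 arrays, and EXO-STD 1 lay within the EXO-HP range. The log2 fold change of 1.03 ± 0.76 (95% interval -0.86 to 2.92, limma, adjusted p = 1.00) was -0.26 without EXO-STD 2 and 2.32 without EXO-STD 1.

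Gas1 probe A_55_P2070510 read -6.01, -4.26 and -6.79 on the EXO-HP arrays, against -8.67 and -6.22 on the EXO-STD arrays, with no EXO-STD array well above background. Here EXO-STD 1 was the low array and EXO-STD 2 lay within the EXO-HP range, the reverse of the other probe. The groups overlapped, and the fitted interval was -0.71 to 4.22 (limma, adjusted p = 0.972). With the percentile scaling and all arrays, EXO-HP was at least 1.53-fold higher, with means of -5.69 ± 1.30 (SD, n = 3) in EXO-HP and -7.44 ± 1.73 (SD, n = 2) in EXO-STD. This bound rests on EXO-HP 2: without it the EXO-HP mean was -6.40, below the -6.30 set for EXO-STD, and no bound was left. On the log2 scale the fitted difference was 1.04 without EXO-HP 2, 0.53 without EXO-STD 1, 2.98 without EXO-STD 2 and 0.31 with normexp. The remaining Gas1 probe, A_51_P157083, never cleared background and lay between -9.42 and -8.08 in EXO-HP, against -7.58 and -8.18 in EXO-STD.

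Hhip, the membrane-bound decoy for Hedgehog ligands, showed the smallest p among the members. Its tested probe entered the test through the EXO-HP arrays alone, and so had to lean higher there. Probe A_55_P1969276 (chr8:82494280-82494339, minus strand) read -5.59, -4.34 and -4.31 on EXO-HP 1, 2 and 3, against -6.23 and -6.58 on EXO-STD 1 and 2. All EXO-HP arrays were well above background and above both EXO-STD arrays, neither of which was, and the slide 2 arrays were highest. With the percentile scaling, the mean of -4.74 ± 0.73 (SD, n = 3) in EXO-HP was at least 2.71-fold higher than that of -6.40 ± 0.25 (SD, n = 2) in EXO-STD (limma, fitted interval 0.54 to 2.77, unadjusted p = 0.0113, adjusted p = 0.884), and so did not pass. The same bound was between 2.33-fold and 3.62-fold when each array was left out in turn.

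Against the EXO-STD mean, Hhip stood at 0.82, 2.06 and 2.10 on EXO-HP 1, 2 and 3. The medians of all tested probes in its decile of mean signal, the next to dimmest, were 0.16, 0.77 and 0.21 on the same arrays. The difference on slide 1 alone was thus 0.82. Without EXO-HP 1 the adjusted p was 0.0622, but every remaining EXO-HP array then lay on slide 2 and every EXO-STD array on slide 1, so that slide and group cannot be told apart. With normexp the log2 fold change was 0.48 and with quantile normalisation 1.24, both under the bound. A further Hhip probe, A_51_P416822, which starts 3551 bases away, never cleared background; it read -8.15, -7.41 and -8.89 in EXO-HP, against -8.23 and -7.78 in EXO-STD.

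Sufu, which holds the GLI factors in the cytoplasm, was read by the pair of probes printed above. A_52_P603184 read -2.47, -2.50 and -2.73 on the EXO-HP arrays, against -2.15 and -5.13 on the EXO-STD arrays. As for the Gas1 probe A_55_P2025562, EXO-STD 2 stood far below the other 4 arrays, and EXO-STD 1 was the highest of all. Over all arrays the difference was 1.07 ± 0.84 (interval -1.02 to 3.16, limma, adjusted p = 1.00), and without EXO-STD 2 it was -0.42. A_51_P396550 read -5.77, -5.32 and -5.97 on the EXO-HP arrays, against -5.77 and -6.11 on the EXO-STD arrays, a log2 fold change of 0.26 ± 0.27 (limma, adjusted p = 1.00) that was -0.28 with quantile normalisation and -0.07 with normexp. EXO-STD 2 was again lowest on this probe, yet only slightly below EXO-HP 3. The probe was not well above background there, and its -6.11 lay next to that array's faintest signal well above background, -6.14. A larger fall on EXO-STD 2 could thus not be read reliably from A_51_P396550. The log2 ratio of A_52_P603184 to A_51_P396550 was 3.30, 2.82 and 3.23 on the EXO-HP arrays, against 3.62 and 0.98 on the EXO-STD arrays, so EXO-STD 2 was the array on which the probes parted (exact permutation test between the groups, 2-sided p = 0.8).

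Among the transcription factors, Gli3, which is processed into the main repressor of the pathway, was close to the detection limit. Its probe A_51_P171288 (chr13:15821502-15821561, plus strand) read -7.05, -5.73 and -5.62 on EXO-HP 1, 2 and 3, against -6.19 and -7.55 on EXO-STD 1 and 2. The groups overlapped, with the slide 2 arrays highest. A log2 fold change of 0.74 ± 0.60 (interval -0.75 to 2.23, limma, adjusted p = 1.00) resulted, which was -0.18 on slide 1 alone and -0.05 with normexp. In the dimmest decile of all tested probes, to which Gli3 belongs, the median difference from EXO-STD was 0.23, 1.53 and 0.74 on EXO-HP 1, 2 and 3.

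Gli1, the activator whose own transcription is a standard readout of Hedgehog activity, was read by A_55_P2183587 at chr10:126766967-126767026 on the minus strand. It stood at -8.00, -4.68 and -7.39 on EXO-HP 1, 2 and 3, against -8.43 and -6.02 on EXO-STD 1 and 2. Only the signal on EXO-HP 2, the array with the largest share of detected spots, was well above background, so no fold is given. Gli2, which transmits most of the activating signal, read between -7.80 and -7.11 in EXO-HP, against -7.71 and -8.12 in EXO-STD, all not well above background.

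**Figure D2:**
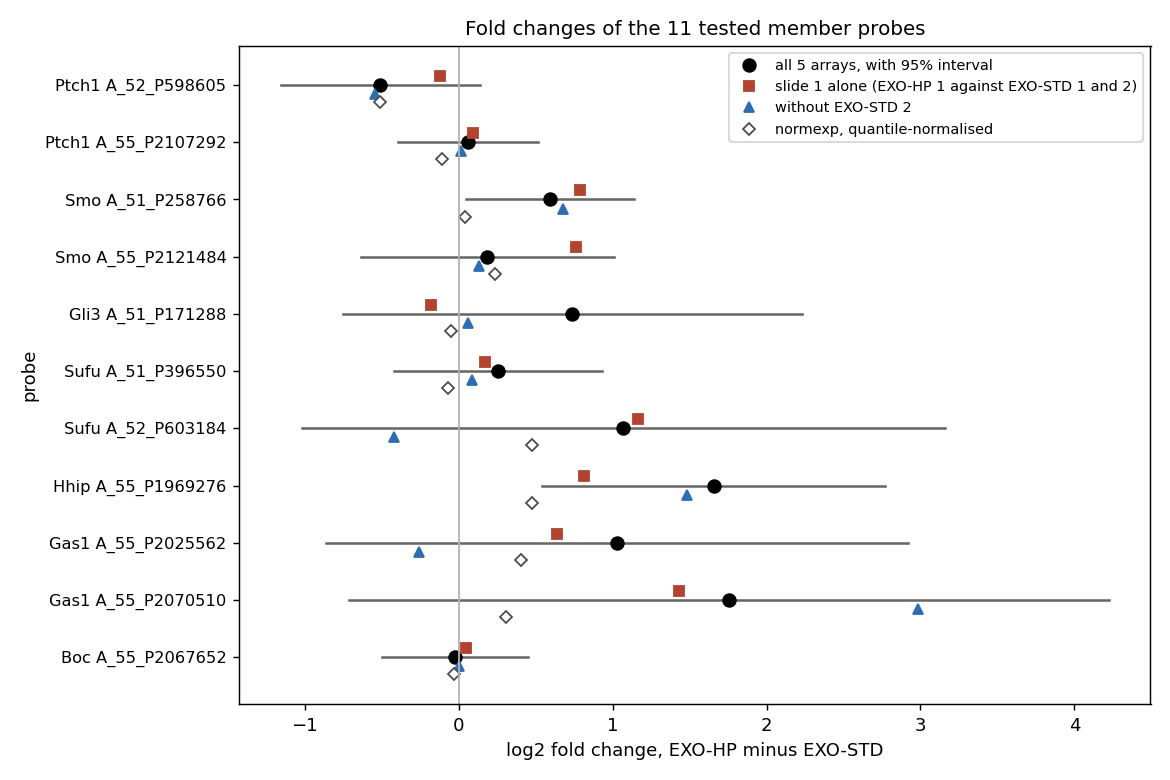
Log2 fold change, EXO-HP minus EXO-STD (horizontal axis), of the 11 tested member probes over all 5 arrays with the 95% interval of limma (black), on slide 1 alone (squares), without EXO-STD 2 (triangles) and after normexp correction with quantile normalisation (diamonds). The interval covers 0 for 9 probes; without EXO-STD 2 the Sufu probe A_52_P603184 stands at -0.42 in place of 1.07 and the Gas1 probe A_55_P2025562 at -0.26 in place of 1.03.

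Of the 11 tested member probes, 0 passed adjusted p 0.05 in limma. At an unadjusted p under 0.05 there were 2, Smo A_51_P258766 and Hhip A_55_P1969276, both higher in EXO-HP, against 5.36% of all tested probes in this direction, 0.238% lower in EXO-HP and 5.6% either way. The EXO-HP arrays lay wholly above the EXO-STD arrays for the same 2 probes, against 15.1% of all tested probes, and wholly below them for 1, the Ptch1 probe A_52_P598605, against 2.76%. Either way this held for 17.8% of all tested probes. A positive log2 fold change was found for 9 of the 11, against 62.8% of all tested probes, a share that was 46.9% with quantile normalisation and 35.8% with median scaling. The members' count was 7 of 11 with quantile normalisation, 8 with median scaling and 6 with normexp or the authors' deposited table. The median log2 fold change was 0.59, against 0.07 over all tested probes. Median scaling put the median of all probes at -0.10 and that of the members at 0.42.

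Of the probes behind these counts, 5 passed the filter on dim signal through the EXO-HP arrays alone. They had to lean toward higher values there, and they include both probes at an unadjusted p under 0.05 in limma. Over the 6 probes detected on all arrays, 4 were higher and the median was 0.12. Without EXO-STD 2 the median of the 11 was 0.06, and with normexp 0.04. As 5 genes have several probes, the probes are not independent of each other.

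**Figure D3:**
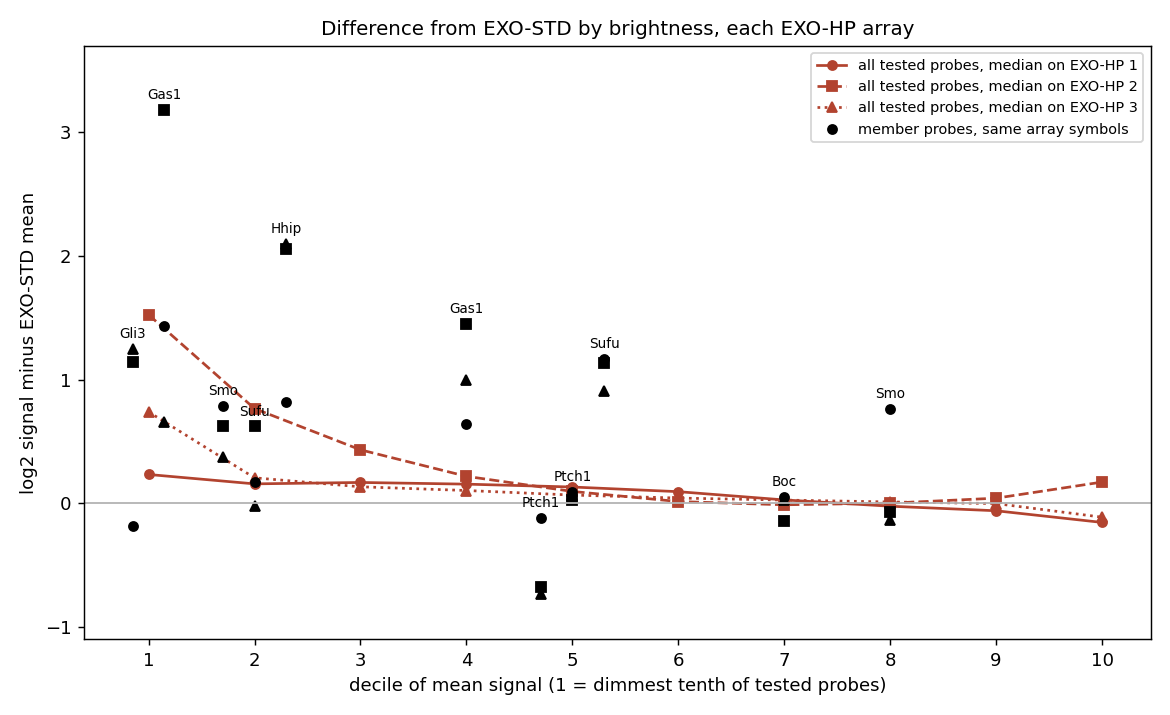
Log2 signal minus the EXO-STD mean (vertical axis) on EXO-HP 1 (circles), EXO-HP 2 (squares) and EXO-HP 3 (triangles) against the decile of mean signal of the probe (horizontal axis, 1 = dimmest). Red lines are medians over all tested probes, which on EXO-HP 2 lie at 1.53 in decile 1 and at 0.10 in decile 5; black symbols are the 11 tested member probes, each labelled with its gene.

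The members were also compared in how they moved over the 5 arrays, by the root mean square difference of log2 values after each probe's own mean was taken away. Among the members detected on all arrays, the Sufu probe A_52_P603184 had the widest range, 2.98. Of 24130 other probes of named genes detected on all arrays, the nearest to it was the Gas1 probe A_55_P2025562, at 0.30, followed by Gm3512 at 0.36 and Pik3r2, a regulatory subunit of PI3 kinase, at 0.43. The median over these probes was 1.09. Both the Sufu and the Gas1 probe were low on EXO-STD 2 and on no other array. Such a departure, an array at least 1 log2 unit below all others, was seen on EXO-STD 2 for 69 of 26951 probes detected throughout (0.256%), and on the other arrays for 46 to 92. Their shared pattern therefore rests on 1 array. The 2 tested probes of Gas1 differed from each other by 1.76 on this measure, those of Sufu by 0.94, those of Ptch1 by 0.34 and those of Smo by 0.31.

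The promoter windows of RefSeq (GRCm38.p6, 250 bases before to 50 after the gene start) were available for 7 of the 9 genes. The GLI consensus GACCACCCA was in 0 of these 7 on either strand, against 0.253% of 32851 windows, and its inner part CCACCCA, which overlaps it, also in 0, against 9.30%. This says only that these letters are not in the windows.

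Around the members, the wider pathway was examined through 5 lists of genes, each represented by its tested probe of highest mean signal. None of the 53 tested genes passed adjusted p 0.05 in limma, against 0% of all tested probes, and 3, Foxf1, Bmp4 and Snai1, had an unadjusted p under 0.05, all higher in EXO-HP, where 5.36% of all tested probes met that rule. All 3 passed the filter on dim signal through the EXO-HP arrays alone and so had to lean higher there.

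Among ligands and proteins that release them, 8 of 9 genes were tested, 5 higher and 3 lower. The median difference on the log2 scale was 0.20, against 0.07 over all tested probes. Dhh and Scube3, both among the higher, passed the filter on dim signal through the EXO-HP arrays alone, and so had to lean higher there. Shh, the ligand best known from neural and limb patterning, read -5.41, -5.58 and -5.59 in EXO-HP, against -6.02 and -4.81 in EXO-STD. The EXO-STD arrays lay on either side of all EXO-HP arrays, and the difference was -0.11 ± 0.38 (SE). Dhh, the ligand of testis and nerve sheath, stood at 0.25 ± 0.40, and Ihh, the ligand of growing cartilage, at 0.63 ± 0.52; without EXO-STD 2 Dhh was at -0.31, and on slide 1 alone Ihh was at -0.15. Hhat, which attaches palmitate to the ligands, read 1.01, 1.24 and 1.23 in EXO-HP, against 0.94 and 0.01 in EXO-STD. Its groups did not overlap, and its log2 fold change of 0.69 ± 0.32 (limma, adjusted p = 0.925), with a second probe at 0.45, was 0.22 without EXO-STD 2.

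Of 6 tested surface proteins outside the members, 5 were higher and 1 lower, with a median of 0.22. Evc and Evc2, with the largest log2 fold changes among them (0.68 and 0.87), passed the filter on dim signal through the EXO-HP arrays alone. They therefore had to lean higher there. On slide 1 alone 1 of the 6 was higher and the median was -0.21, so the direction of this list rests on the slide 2 arrays. Cdon, the partner of Boc, stood at -0.05 ± 0.23, with a second probe at 0.36. Evc2, a ciliary partner of Smo, stood at 0.87 ± 0.59, which was -0.28 on slide 1 alone.

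The genes of the cilium and of Smo traffic were all detected on every array. Of 13 tested, 8 were higher and 5 lower, with a median of 0.03. Gpr161, a ciliary receptor that restrains the pathway through cyclic AMP, read -4.25, -3.96 and -4.19 in EXO-HP, against -5.00 and -4.36 in EXO-STD. Its groups did not overlap, and the log2 fold change was 0.55 ± 0.27 (limma, adjusted p = 0.932), or 0.12 with normexp. Adrbk1, the kinase GRK2 that acts on Smo, had 0.70 ± 0.36 and was at 0.16 without EXO-STD 1. Of 14 kinases and turnover factors of the GLI proteins, 10 were higher and 4 lower, with a median of 0.07 and all log2 fold changes between -0.22 for Dyrk2 and 0.15 for Stk36. Dyrk2 is a kinase that promotes degradation of GLI2, and Stk36 is the mammalian relative of the fly kinase fused; a second probe of Stk36 gave 0.54.

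Published targets outside the members had 12 of 16 genes tested, 9 higher and 3 lower, with a median of 0.14, or 0.10 when genes undetected in EXO-STD are taken at their bound. Foxf1 (Foxf1a on the array), a forkhead factor of mesenchyme, read -6.17, -5.56 and -5.60 in EXO-HP, against -7.54 and -7.59 in EXO-STD. It was well above background on EXO-HP 2 and 3 only and was at least 1.44-fold higher (limma, adjusted p = 0.813). Snai1, a repressor of epithelial genes, read -7.00, -6.65 and -6.76 in EXO-HP, against -8.33 and -8.16 in EXO-STD (limma, adjusted p = 0.813), and no fold is given because its EXO-HP mean lay below the lowest signals well above background in EXO-STD. Bmp4, a secreted growth factor, stood at 1.05 ± 0.35 (limma, adjusted p = 0.885) and at 0.46 on slide 1 alone. A second Bmp4 probe was too dim to test, being well above background on 0 EXO-HP arrays and 1 EXO-STD array. Normexp correction gave log2 fold changes of 0.17 for Foxf1, 0.05 for Snai1 and 0.27 for Bmp4. Of the targets with cell cycle roles, the D cyclin genes Ccnd1 and Ccnd2 stood at -0.31 and 0.06, and Mycn, a growth-promoting factor, at -0.08.

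**Figure D4:**
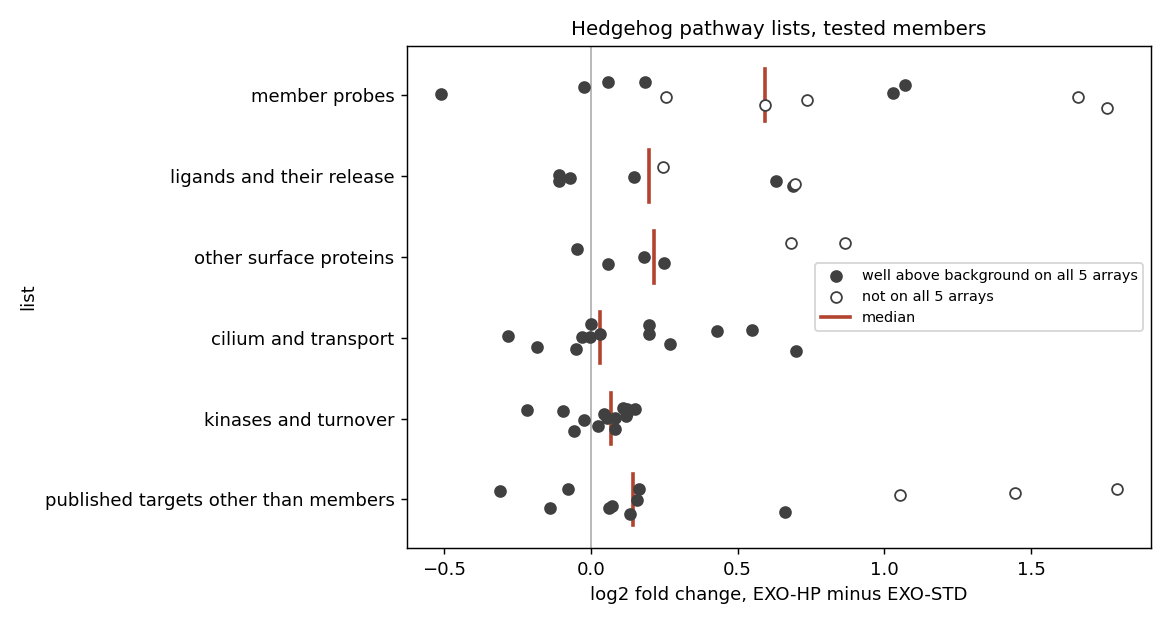
Log2 fold change, EXO-HP minus EXO-STD (horizontal axis), of the 11 tested member probes and of the tested genes of 5 further Hedgehog lists (rows), with the median of each as a red line. Filled points were well above background on all 5 arrays and open points were not; of the filled points none lies beyond 1.07, and the points above 1.1 are all open.

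Because Gas1, Hhip, Gli1 and Foxf1 are also known from connective tissue, markers of other cells were read on the same arrays. Of 8 fibroblast and mesenchyme markers, 3 were well above background on all 5 arrays and 2, the growth factor receptor gene Pdgfra and the matrix gene Postn, on none. The summed level of the list, in units of the array's 75th percentile, was 0.178, 0.365 and 0.284 in EXO-HP 1, 2 and 3, against 0.177 and 0.189 in EXO-STD. EXO-HP 1 thus lay between the EXO-STD arrays. Of 10 skeletal muscle markers, 9 were tested and 9 were higher, against 62.8% of all tested probes. Mylpf, Ckm and Mb among them passed the filter on dim signal through the EXO-HP arrays alone, and so had to lean higher there. The summed level of the list was 1.95, 1.53 and 1.23 in EXO-HP 1, 2 and 3, against 1.31 and 0.996 in EXO-STD 1 and 2. EXO-HP 3 thus lay between the EXO-STD arrays. The part of fibroblast and muscle markers in the values of the Hedgehog genes was not tested.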

How the data were processed

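Per the file headers, the spot intensity values of the scanner tables come from Feature Extraction 10.7.3.1. Version 9.1 and limma stand in the submitters' processing notes. The deposited value table holds log2 values whose columns share 1 distribution (median 7.93 in each) and keep the ranks of mean signal minus local background on each array (Spearman rho = 1); no source used here says how the authors made it. Log2 of the processed intensity, without outlier spots, was averaged per probe and set relative to the 75th percentile of its array. Of 39429 probes, 110 had no usable spot on some array and 7376 were too dim (a probe needed 2 arrays of 1 group well above background), which left 31943. No spot was saturated. EXO-HP was set against EXO-STD with limma 3.58.1 in R 4.3.3 (lmFit, eBayes, no covariates, Benjamini-Hochberg over all tested probes, threshold 0.05).

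On simulated data of 31943 probes in 3 against 2 arrays, changes of 4-fold were recovered in 34.8% of cases. Those of 16-fold were recovered in 78.0%, but those of 2-fold in 0.4%. The simulated noise was independent between probes and held no slide effect or shift with brightness. These shares may therefore not hold for the measured arrays. Background correction, scaling, filter, outlier spots, slide, replicate number, prior variance and the leaving out of each array were varied in 16 alternatives. The members and lists were chosen with earlier results of these data known. Besides all member probes, the rule named the 2 genes of smallest p in each further list, of which 1 is not reported here; Shh, Dhh, Cdon, Bmp4, Ccnd1, Ccnd2, Mycn, Pdgfra and Postn fall outside it and were picked with their values in view. Promoter sequence is that of RefSeq.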

Additional observations from a re-analysis of the deposited data

How the results depend on the processing

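No member probe passed adjusted p 0.05 in limma under any of the 16 alternatives; the smallest value was 0.0622, for Hhip without EXO-HP 1. Over the 25 member probes and pathway genes followed, 30 recomputed fold changes had the opposite sign and 360 kept theirs, the 30 being neither past the threshold before nor after; except where the construction shows it, the cause was not tested. With quantile normalisation these were Ptch1 A_55_P2107292 (-0.064), Sufu A_51_P396550 (-0.28) and Dhh (-0.25), and the members' median was 0.030. With median scaling they were Ptch1 A_55_P2107292 (-0.12) and Stk36 (-0.025). With normexp they were Ptch1 A_55_P2107292 (-0.11), Gli3 (-0.049), Sufu A_51_P396550 (-0.067) and Dhh (-0.15), and the members' median was 0.039. The authors' deposited table gave -0.12, -0.085, -0.12 and -0.22 for the same 4, and a median of 0.061. Among probes detected on all 5 arrays, 4 of 6 members were higher, with a median of 0.12, since fewer probes enter. With outlier spots kept, Shh was at 0.023. With slide as a fixed block they were Gli3 (-0.18), Boc (0.048), Ihh (-0.15), Evc2 (-0.28), Stk36 (-0.043) and Shh (0.011).

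Leaving out 1 array at a time gave 0 to 3 probes past the threshold over the whole array, the 3 without EXO-STD 1 and none of them a member. It gave 8 to 10 member probes higher in EXO-HP and a median from 0.061 (without EXO-STD 2) to 0.53. The single values ranged from -0.42 to 2.56 for Sufu A_52_P603184, from -0.26 to 2.32 for Gas1 A_55_P2025562, from -0.059 to 0.038 for Boc, from -0.10 to 0.35 for Smo A_55_P2121484, from -0.59 to 0.15 for Dyrk2, from -0.72 to 0.50 for Shh, from -0.31 to 0.80 for Dhh, from -0.19 to 0.067 for Cdon and from -0.0043 to 0.31 for Stk36. Bounds with each array left out, an alternative chosen after seeing the data, kept their direction for Hhip and Foxf1. So did the fold of Smo A_51_P258766, which its bound equals. The bound of Gas1 A_55_P2070510 was -0.098 on the log2 scale without EXO-HP 2, and so is no bound, against up to 1.17. Probes at unadjusted p under 0.05 numbered 1788, against 487 with normexp and 3411 without EXO-HP 1.

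The labels number the samples of both groups, and the same-numbered arrays deviated from their group means with correlations of 0.02 (number 1) and -0.06 (number 2) across probes, so the numbers are not shown to pair the samples. The fit with the replicate block called 0 probes, had 9 of 11 members higher and a median of 0.48; its fold changes equal those without EXO-HP 3, whose number has no partner, but its test differs, with 1649 probes at unadjusted p under 0.05 against 950.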
